A study of Mus musculus with 31 samples.

Results

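Glycine and GABA are the fast inhibitory transmitters of the nervous system, and 9 genes that make, move, receive or anchor them were read on 31 mouse expression arrays: Slc6a5, Slc6a9, Slc32a1, Gad1, Gad2, Glra1, Glrb, Gphn and Slc12a5. The genes were chosen by symbol. All 21 probe sets annotated to 1 of these symbols were taken, 2 to 4 for each gene, out of 45101 probe sets and 18194 named genes. A probe set is the group of short oligonucleotides that reports 1 transcript region, and its intensity is a brightness on a linear scale.

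Biotin-labelled RNA of 10 groups of 2 to 5 samples, all described as sorted mouse CD4 T cells, was hybridised to 1 array per sample, to compare natural and induced regulatory T cells (Treg) with conventional T cells. Mice in which the Treg factor Foxp3 is read through a green fluorescent reporter (Foxp3/EGFP bicistronic) gave conventional T cells (3 arrays), natural Treg (4), natural Treg activated with antibodies to CD3 and CD28 plus TGF-beta (3), T cells activated with the antibodies alone (4), Treg induced for 3 days by the antibodies plus TGF-beta (5), and reporter-negative cells of those cultures, named failed induced Treg (3). Mice with the mutant allele Foxp3deltaEGFP gave reporter-positive cells from heterozygous females (natural Foxp3delta, 2) and induced cells (induced Foxp3delta, 3), whose starting cells came from mutant males. Induced Treg and induced Foxp3delta cells were further kept for 1 week in interleukin 2 (IL-2) at 100 units per ml (2 arrays each). Ages were not given, and nothing in the labels said that samples of 1 group came from separate animals or cultures, so a p-value here speaks only of the spread among these arrays, part of which may be technical.

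The arrays did not read as their labels say, and groups are named below by label only. No difference between labels is read below as an effect of a treatment or an allele. Of 9 listed T cell markers 8 were measured, at a median percentile of 22.5 within an array, and only Cd3e lay above the bacterial controls on all 31 arrays (mean 36.8). Cd2, Cd5 and Cd27 lay above them on none. The controls are 27 bacterial probe sets for which nothing was spiked in, and the line used is their 95th percentile, 14.3. The 7 neuron markers had a median percentile of 99.2, the 5 astrocyte markers one of 99.1 and the 4 measured oligodendrocyte markers one of 99.955. Deposited array medians ran from 22.2 to 55.4, arrays correlated with each other at 0.981 to 0.997, and clustering on control and brightness values split them into 3 array sets of 15, 10 and 6, called sets 1, 2 and 3. All natural Treg, conventional T and IL-2 arrays lay in set 1, and all activated natural Treg arrays lay in set 2. Activated T arrays (3 in set 2, 1 in set 3), induced Foxp3delta arrays (1 and 2) and natural Foxp3delta arrays (1 and 1) had none in set 1. In 5 of the 13 comparisons made below the groups share no array set, so that set and label cannot be told apart: natural Foxp3delta against conventional T and against natural Treg, activated T against conventional T, activated natural Treg against natural Treg, and induced Foxp3delta with against without IL-2. In RNA of a whole tissue, fewer cells of a type and less RNA per cell cannot be told apart.

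As background, an inhibitory neuron that uses GABA makes it from glutamate with the glutamate decarboxylases Gad1 and Gad2. A neuron that uses glycine takes it up at its endings through the transporter Slc6a5, while Slc6a9, best known from astrocytes, clears glycine around synapses. Both transmitters enter synaptic vesicles through the same carrier, Slc32a1. Glycine opens a chloride channel built from alpha subunits, such as Glra1, and the beta subunit Glrb, which is tied to the scaffold gephyrin (Gphn), a scaffold shared with GABA-A receptors. The flow of chloride into the cell depends on the neuronal exporter Slc12a5, which keeps chloride inside the cell low. Glycine transmission is best known in the spinal cord and brainstem, and GABA transmission throughout the brain.

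The stretch of 250 bases before the transcription start is shown for the genes that define a glycine neuron, a GABA neuron and the vesicle carrier both use, so that the promoters behind the signals can be set side by side. Sequences are RefSeq's on mouse assembly GRCm38.p6, 5′ to 3′ on the gene's strand, with every CG dinucleotide in capitals. They lie at chr7:49910049-49910298 for Slc6a5 (the first of 2 starts), chr2:158610508-158610757 for Slc32a1, chr2:70561879-70562128 for Gad1 and chr2:22622077-22622326 for Gad2, all on the plus strand.
Slc6a5: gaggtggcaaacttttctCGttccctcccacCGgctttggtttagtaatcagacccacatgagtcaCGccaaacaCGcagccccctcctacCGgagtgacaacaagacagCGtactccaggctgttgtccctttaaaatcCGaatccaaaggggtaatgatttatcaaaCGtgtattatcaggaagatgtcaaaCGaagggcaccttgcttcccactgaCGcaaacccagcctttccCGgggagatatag
Slc32a1: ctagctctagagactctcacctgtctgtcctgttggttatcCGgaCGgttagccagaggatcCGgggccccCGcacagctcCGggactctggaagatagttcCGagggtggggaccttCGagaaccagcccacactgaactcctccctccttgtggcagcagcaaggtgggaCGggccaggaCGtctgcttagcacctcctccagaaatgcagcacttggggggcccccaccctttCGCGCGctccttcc
Gad1: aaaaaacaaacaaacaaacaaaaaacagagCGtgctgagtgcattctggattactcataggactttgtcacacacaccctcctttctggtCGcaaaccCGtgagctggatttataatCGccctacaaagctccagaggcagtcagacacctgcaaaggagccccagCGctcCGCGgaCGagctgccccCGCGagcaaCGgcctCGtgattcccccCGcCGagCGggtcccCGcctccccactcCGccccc
Gad2: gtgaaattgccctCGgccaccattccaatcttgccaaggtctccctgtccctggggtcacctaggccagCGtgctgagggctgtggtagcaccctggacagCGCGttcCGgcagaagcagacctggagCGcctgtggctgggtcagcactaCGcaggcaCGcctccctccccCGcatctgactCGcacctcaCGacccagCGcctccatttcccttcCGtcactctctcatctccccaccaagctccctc
These 4 stretches held 11, 12, 17 and 13 CG, against a median of 6 over the 32851 mouse promoters compared. Entries were found for 8 of the 9 genes, with 12 starts in all. The Gphn stretch was the richest of the 12, with 34 CG and more than 96.5% of the promoters compared, and that of Glrb followed with 20. The letters TATAAA, searched on both strands, were present in 1 of the 12, that of Gad1 on the strand opposite to the gene, and in 12.4% of all promoters compared. A match of letters is a description of the window and not a binding site.

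The genes that handle glycine in neurons and around synapses were bright on every array. The Slc6a5 probe set used in the tests averaged a deposited intensity of 1808 ± 618 (SD, n = 31), between 998 and 3108, with a mean percentile of 96.1 among the probe sets of its array. Slc6a9 averaged 2758 ± 1027 (1385 to 5615) at percentile 97.5. The deposited intensities carry the differences in overall array level, and the percentiles spread less than the intensities: that of Slc6a5 stayed between 94.8 and 97.1. Gcsh and Dld, parts of the glycine cleavage system, averaged 1889 ± 504 and 964 ± 275, Shmt2 and Shmt1, which make glycine from serine, 183 ± 38.0 and 54.8 ± 10.1, and Gldc, the decarboxylase of the cleavage system, 27.6 ± 7.83.

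Genes of GABA synthesis and vesicle filling were also read above the controls. Gad1 averaged 1684 ± 372 (SD, n = 31; 961 to 2434) at percentile 96.0, Gad2 averaged 302 ± 81.0 (148 to 487) at percentile 79.9, and Slc32a1 averaged 1334 ± 295 (703 to 1958) at percentile 94.8. The probe sets used in the tests for all 3 lay above the bacterial controls on all 31 arrays. Further Slc32a1 probe sets were much dimmer, as given below. Of the GABA uptake genes, the astrocyte transporter Slc6a11 averaged 873 ± 229, Slc6a13 averaged 112 ± 28.5, and Slc6a12 averaged 14.7 ± 3.15 and was above the controls on 16 arrays. The GABA breakdown enzymes Abat and Aldh5a1 averaged 3599.5 ± 1097 and 893 ± 227.

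On the receiving side, Glra1 averaged 2138 ± 597 (SD, n = 31; 1116 to 3283) at percentile 96.8, Glrb averaged 1668 ± 453 (855 to 3078) at percentile 95.9, and Gphn averaged 688 ± 141 (388 to 1051) at percentile 89.9. The other glycine receptor alpha subunits were read at 82.2 ± 18.4 for Glra2, the subunit of the developing nervous system, and 133 ± 38.2 for Glra3. Glra4 averaged 9.21 ± 1.45 and was above the controls on 0 arrays. Gabbr1, a subunit of the metabotropic GABA-B receptor, averaged 2868 ± 868, and the inhibitory synapse proteins Nlgn2, Iqsec3 and Slitrk3 averaged 949 ± 241, 1466 ± 471 and 26.2 ± 5.25. Slc12a5, the chloride exporter, averaged 4424 ± 1539.5 (2086 to 8136) at percentile 98.8, and Slc12a2, the importer that works against it, 2905 ± 708. Probe sets differ in how brightly they report a transcript, so these levels do not order the genes by amount of RNA, and the glycine and GABA shares of the tissue cannot be read from them.

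Inhibitory neuron factors among the companion genes were read against the same controls. Of 8 transcription factors of forebrain inhibitory neurons, 6 were measured, with means of 8.24 to 13.5, and 0 lay above the controls on all arrays. Of 8 factors of hindbrain and spinal inhibitory neurons, 7 were measured, with means of 10.1 to 63.6, and Lhx1, Gbx1, Gata2 and Tal1 lay above the controls on all 31 arrays, at means of 47.0, 63.6, 57.5 and 26.0. En1 lay above them on none. Passing this line shows little: 1 of the 27 controls averaged 25.4, and a gene with a mean of 14.7 lay at percentile 26.5. The hindbrain and spinal factors had a median percentile of 42.0, so these values do not settle which factors the RNA carried. All 7 inhibitory interneuron markers were above the controls on every array, among them the calcium binding proteins Calb2 (3765 ± 1077), Pvalb (3060.2 ± 1009) and Calb1 (1319 ± 365) and the neuropeptide somatostatin, Sst (2029.9 ± 607). The vesicular glutamate transporter Slc17a6 averaged 2608 ± 814, and Slc17a7, the carrier of cortical excitatory neurons, 16.3 ± 3.61, above the controls on 22 arrays.

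**Figure D1:**
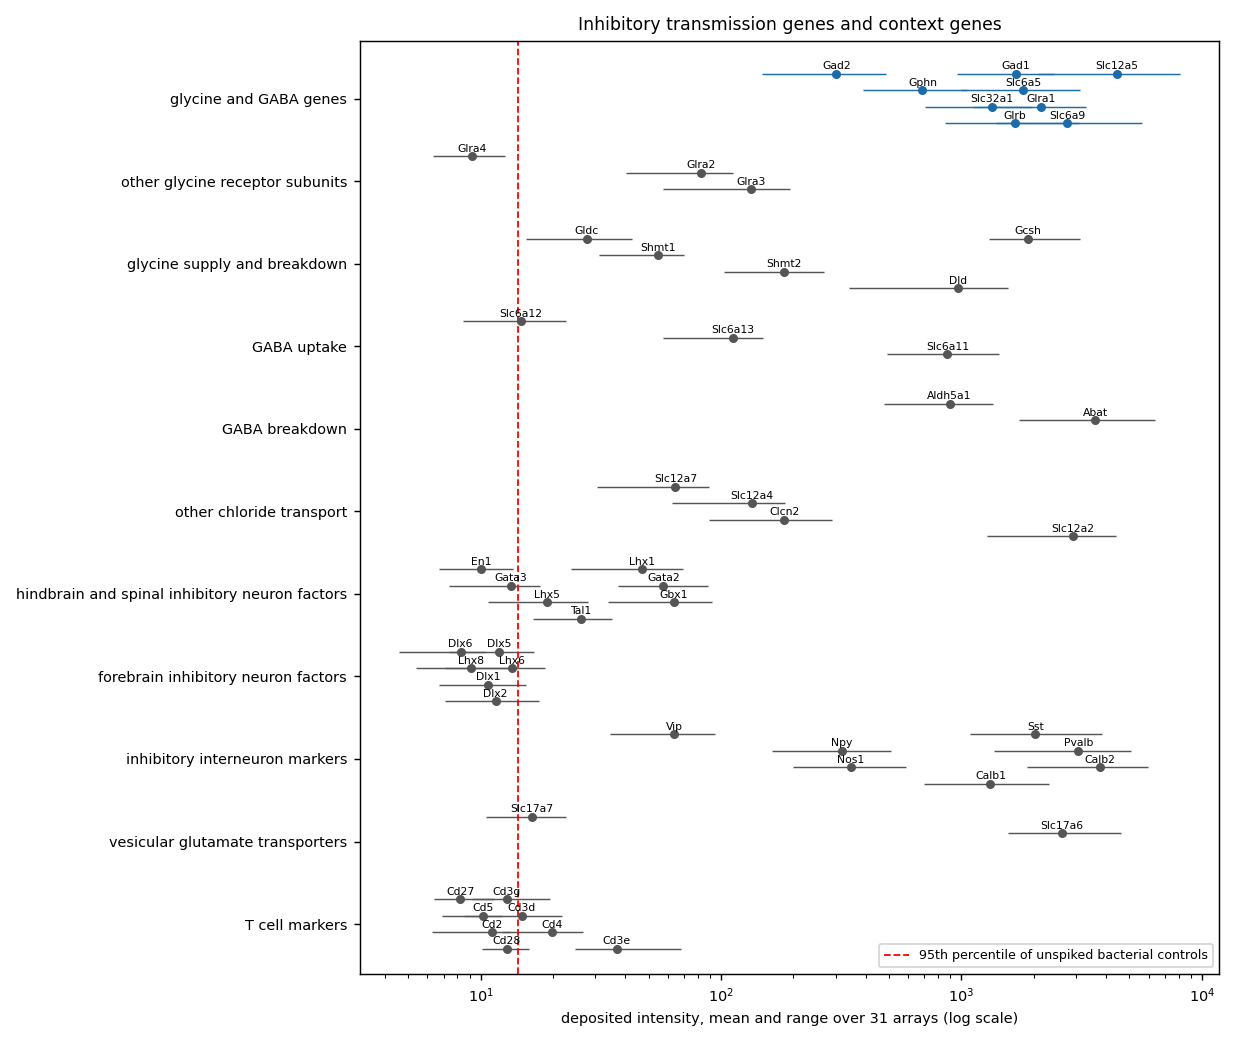
Deposited intensity (x axis, log scale) of 1 probe set per gene, grouped by gene list (y axis); each point is the mean over 31 arrays, each line runs from the lowest to the highest array, and the dashed line is the 95th percentile of the unspiked bacterial controls, 14.3. The 9 glycine and GABA genes, in blue, lie to the right of that line on every array, from a mean of 302 for Gad2 to 4424 for Slc12a5, and the T cell markers and forebrain factors lie around it; positions of different genes are not amounts of RNA.

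Further probe sets of the same genes read them at other levels. Of the 21 member probe sets, 19 lay above the controls on all 31 arrays, and the other 2 were both annotated to Slc32a1: 1447573_at (mean 13.3, above the controls on 10 arrays) and 1447574_s_at (mean 11.3, on 4 arrays). The remaining Slc32a1 probe set, 1456457_at, averaged 32.4, so the reading of Slc32a1 as a bright gene rests on 1422756_at. The second Slc6a5 probe set, 1425992_at, averaged 44.2 at percentile 51.4 against 1808 for 1442177_at, so the reading of Slc6a5 as a bright gene rests on 1442177_at. For Gad1 and Gad2 the second probe sets averaged 669 and 211, for Slc6a9, Glra1 and Glrb 621, 704 and 468, for Slc12a5 236, and for Gphn 624 and 153.

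After quantile normalisation, which gives every array the same distribution of values, 4 of the 9 genes varied more between arrays than the median gene and 5 less. The ratio of the highest to the lowest of the 31 arrays, each with 16 added as in the tests, was 1.28 for Glrb, 1.39 for Gad1, 1.55 for Glra1, 1.59 for Slc32a1, 1.65 for Gad2, 1.71 for Slc6a5, 1.72 for Gphn, 1.85 for Slc6a9 and 1.88 for Slc12a5. On the log2 scale the SD over arrays ran from 0.10 for Glrb to 0.25 for Slc6a9, against a median of 0.16 over all 12167 genes tested. The SD of Slc6a9 lay at percentile 89.3 of all genes, that of Slc12a5 at 83.6, Gad2 at 74.1 and Slc6a5 at 67.7. Label groups accounted for 17.2% (Glra1) to 53.0% (Gad2) of a member's variance, around the median of 41.1% over all genes. A split into 10 groups takes up some variance even without any difference between them, and more than a split into 3 sets. Label shares are therefore not comparable with set shares. Array sets accounted for 41.5% of the variance of Gad1, 41.1% of that of Gad2, 37.1% of that of Slc12a5 and 35.4% of that of Slc6a9, against a median of 24.2% over all genes. The other 5 members lay below that median, with 22.1% for Slc6a5, 16.9% for Slc32a1, 15.3% for Gphn, 2.1% for Glra1 and 1.06% for Glrb. Gad1 averaged 1509 ± 19.2 (SD, n = 6) in set 3, between 1483 and 1541, and 1805 ± 133 (n = 10) in set 2, between 1599 and 2074, so these 2 sets did not overlap. Slc12a5 ran the other way, at 5162 ± 387 in set 3 and 3954 ± 471 in set 2, overlapping by little (4537 to 5444 and 3128 to 4543).

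**Figure D2:**
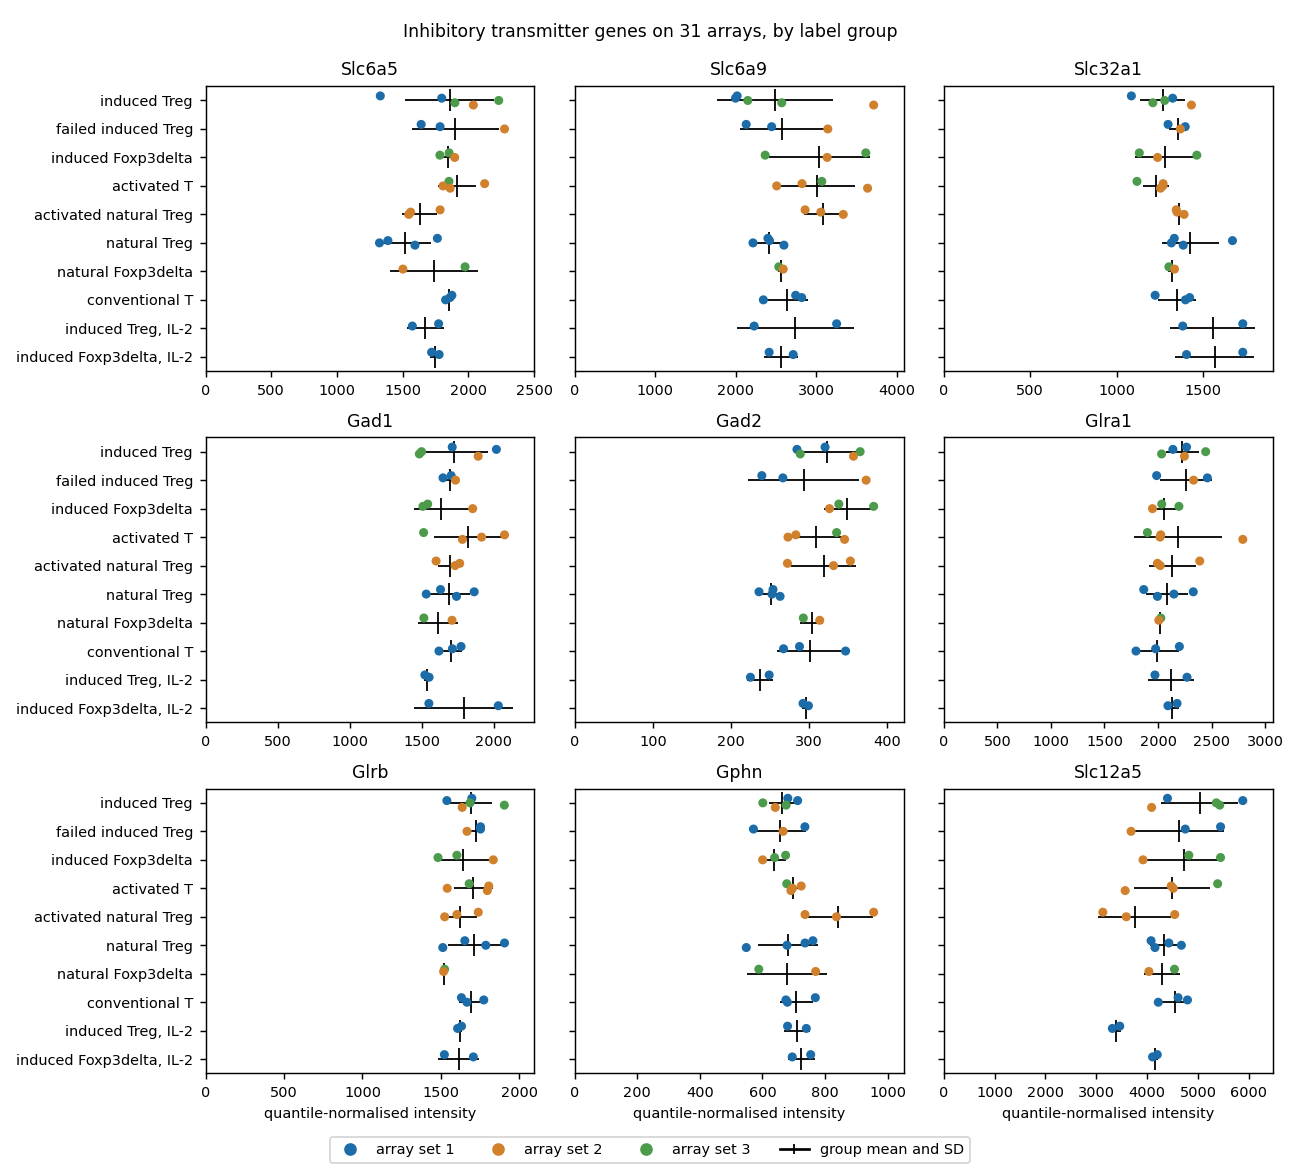
Quantile-normalised intensity (x axis) of each of the 9 genes by label group (y axis); points are the 31 arrays, coloured by array set, and the black mark and line are the group mean and its SD. In a single comparison, groups do not overlap for 0 to 3 of the 9 genes and for 1.91% to 39.3% of all genes. Among the separated points are those of Slc12a5 on the induced Treg arrays after IL-2 (3316 and 3461, below the 5 induced Treg arrays at 4088 to 5882).

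Across 13 comparisons of label groups, the 9 genes gave 117 differences, tested with limma over all 12167 genes with Benjamini-Hochberg adjusted p-values and called at an adjusted p under 0.05. Of these, 1 was called, against 2.08% of all gene comparisons, and 8 (6.84%) had an unadjusted p under 0.05, against 13.3% of all 158171 gene comparisons. The median size of a member's difference was 0.08 on the log2 scale and the largest was 0.56. In the limma F test for any difference among the 10 groups, 0 of the 9 genes were called, against 13.6% of all genes, and 1, Gad2 (adjusted p = 0.0895), had an unadjusted p under 0.05, against 31.2% of all genes. Differences are of log2(normalised intensity + 16), which understates the change of dim genes; comparisons that share a group of arrays are not independent of each other.

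**Figure D3:**
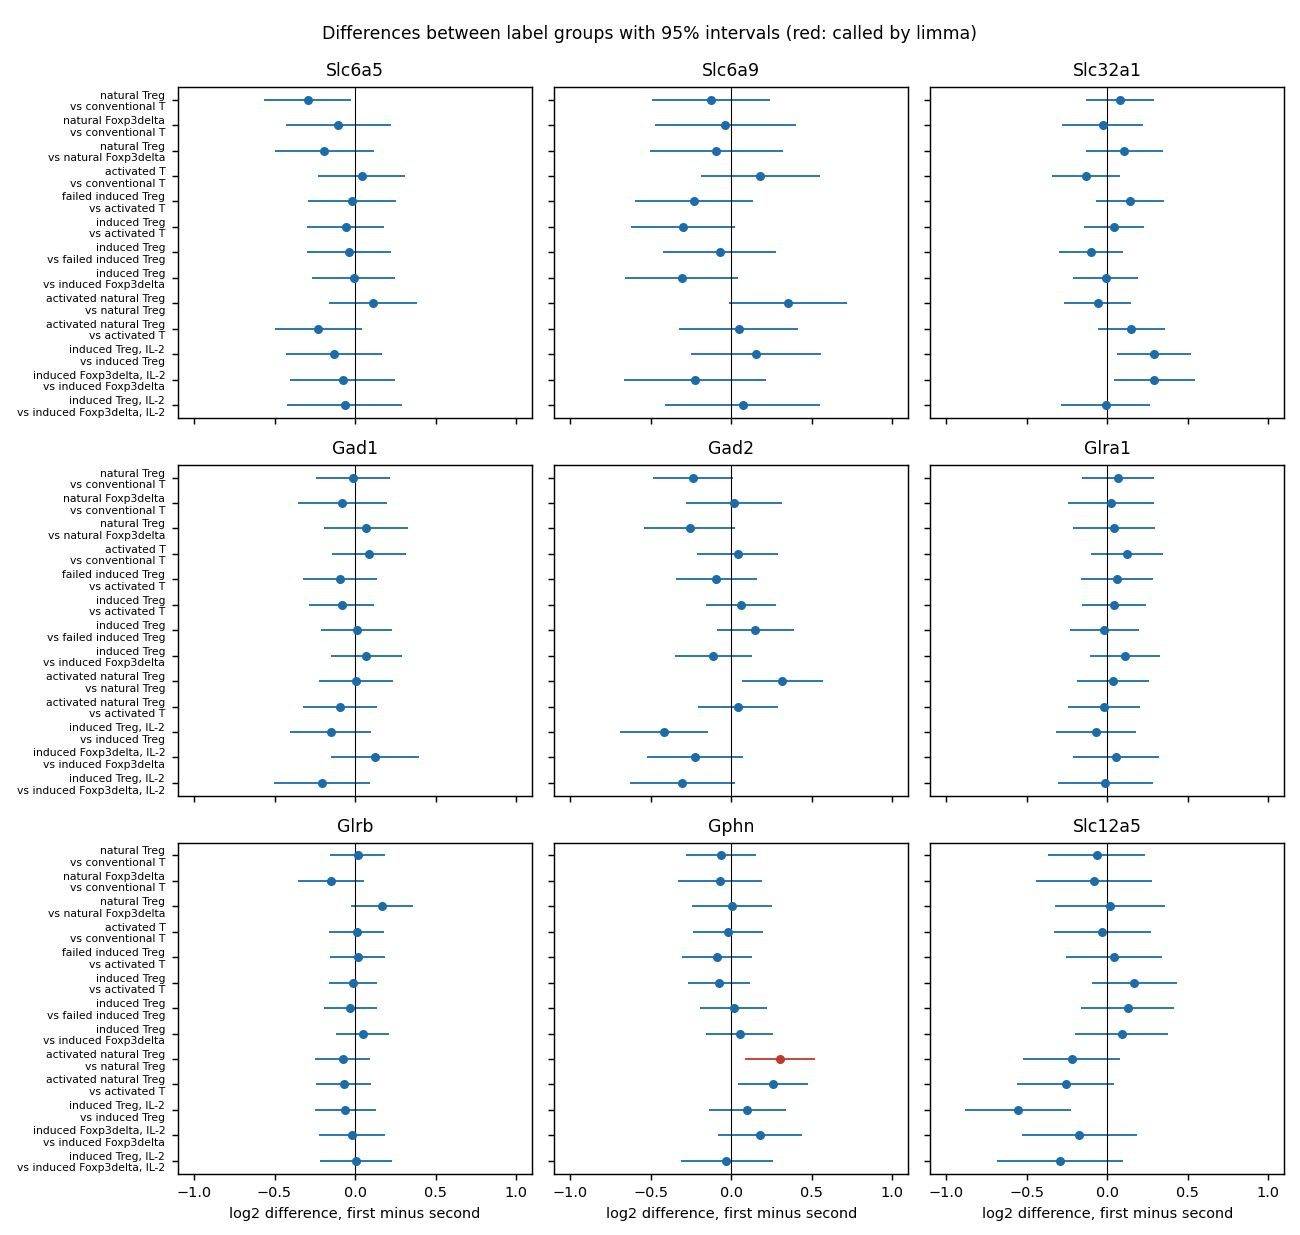
Log2 difference (x axis) of each of the 9 genes in each of the 13 comparisons (y axis), with 95% intervals from limma; red marks the comparison called at an adjusted p under 0.05. Most intervals cross 0, the called one is Gphn between activated natural Treg and natural Treg (0.30), and the lowest point is Slc12a5 between induced Treg with and without IL-2 (-0.56).

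The natural Treg arrays were compared with conventional T arrays, the pair whose labels set unactivated Treg beside their counterparts. Slc6a5 was read at 1764, 1387, 1323 and 1593 on the 4 natural Treg arrays and at 1874, 1859.8 and 1826 on the 3 conventional T arrays, so the groups did not overlap and every natural Treg array was the lower. The difference was -0.30 (SE 0.13, limma adjusted p = 1), which did not pass the test. The second Slc6a5 probe set gave 0.01 (SE 0.13). Gad2 separated the same groups, at 236 to 263 against 267 to 346 (difference -0.24, adjusted p = 1). With limma, 0 of the 9 genes were called and 1 had an unadjusted p under 0.05, where 0.00822% of all genes were called, 2.65% had an unadjusted p under 0.05 and 6.7% did not overlap. The natural Foxp3delta label was compared with both. Natural Foxp3delta arrays against conventional T arrays gave 0 called members and 0 with an unadjusted p under 0.05 (0.189% and 15.8% of all genes), with Glrb at 1523 and 1517 against 1630.4, 1773 and 1665 as the member with the largest difference (-0.15, SE 0.10). Natural Treg arrays against natural Foxp3delta arrays also gave 0 and 0 (0.0493% and 16.1% of all genes), with the largest difference in Gad2 (-0.26, SE 0.14, adjusted p = 0.365).

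The comparison of activated natural Treg with natural Treg arrays gave the 1 called difference. Gphn, the scaffold under glycine and GABA-A receptors, was read at 956, 736 and 837 on the activated natural Treg arrays and at 761, 736, 679 and 549 on the natural Treg arrays. The activated arrays held the 2 highest values and the groups overlapped, since the second activated array lay level with the second natural Treg array. The difference was 0.30 (SE 0.11, 95% interval 0.09 to 0.52, limma adjusted p = 0.0497), in a comparison in which 16.7% of all genes were called and 32.3% had an unadjusted p under 0.05. The other Gphn probe sets had negative differences, -0.24 for 1426463_at (SE 0.13, adjusted p = 0.213) and -0.58 for 1430038_at (SE 0.18, adjusted p = 0.0279), the second of them called in the opposite direction when each probe set was fitted on its own. In that fit the tested Gphn probe set, 1426462_at, kept its difference of 0.30 with an adjusted p of 0.0523 and was not called. The Gphn call was lost in 23 of 31 repeats without 1 array and with a term for the array set (0.34, adjusted p = 0.354), and all arrays of the first group lie in set 2 and all of the second in set 1, so array set and label cannot be told apart here. A sign of RNA quality also separated these groups: the ratio of the 3′ to the 5′ probe set of actin was 2.05 to 2.13 on activated and 1.73 to 1.84 on unactivated natural Treg. The Gapdh ratio overlapped (0.904 to 1.02 and 1.01 to 1.03). The part of RNA quality in the result was not tested.

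The other 8 members did not pass the test in that comparison. Gad2 was read at 353, 272 and 331 on activated natural Treg arrays and at 254, 236, 252 and 263 on natural Treg arrays, every activated array above every other (difference 0.32, SE 0.12, limma adjusted p = 0.0702), and its second probe set gave 0.22 (SE 0.10). Slc6a9 was read at 2859.7, 3055 and 3333 against 2398, 2418, 2213 and 2597, again without overlap, and differed by 0.35 (SE 0.18, adjusted p = 0.17), while its second probe set differed by 0.02. Groups did not overlap for these 2 of the 9 members, and for 30% of all genes. Slc6a5, Slc32a1, Gad1, Glra1, Glrb and Slc12a5 had differences of 0.11, -0.06, 0.01, 0.03, -0.08 and -0.22. Cd3e, the T cell receptor chain, was higher on the same activated arrays by 0.59 (adjusted p = 0.0136). It was the T cell marker bright enough to test, 8 of the 9 listed were measured, and their summed normalised intensity was 128 to 159 on activated natural Treg arrays and 109.6 to 117 on natural Treg arrays, with Cd2, Cd5 and Cd27 above the controls on no array; its part in the result was not tested. The neuron markers had 0 of 7 called in either direction.

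The arrays labelled as T cells activated without TGF-beta gave no called member. Against conventional T arrays, 0 of 9 genes were called and 0 had an unadjusted p under 0.05 with limma, while 6.76% of all genes were called and 24.4% had such a p. The largest difference was that of Slc6a9 (0.18, SE 0.18), read at 3067, 2822, 2507.5 and 3635 against 2743, 2818 and 2342. Glra1 was read at 1901, 2025.5, 2019 and 2792 on the activated T arrays, the last far above the others, and at 2199.5, 1977.5 and 1794 on conventional T arrays. When each probe set was fitted on its own, the Gphn probe set 1430038_at was called in this comparison (-0.64, SE 0.18, limma adjusted p = 0.0339), while 1426462_at had -0.02. Cd3e was higher on these activated arrays by 0.81 (adjusted p = 0.00589), with summed T cell markers of 140 to 168.5 against 110 to 114.8, and 1 of 7 neuron markers, the nuclear splicing factor Rbfox3, was lower by a difference of -0.70 (adjusted p = 0.0372). The Gapdh 3′ to 5′ ratio was 0.854 to 0.986 on activated T and 0.999 to 1.03 on conventional T arrays, and the part of these in the result was not tested. With arrays set to a common median instead of quantile normalised, 7 of the 9 members were called higher here, where 3727 genes were called higher and 222 lower. Between activated natural Treg and activated T arrays, 0 members were called, 1 had an unadjusted p under 0.05 (Gphn, 0.26, limma adjusted p = 0.255), where 0.723% and 14.1% of all genes did so. Groups did not overlap there for 3 of the 9 members, and for 7.65% of all genes. These were Slc6a5, Slc32a1 and Gphn, with differences of -0.23, 0.15 and 0.26.

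The groups labelled as induced with TGF-beta gave no called difference in any of the 9 genes. Induced Treg arrays against activated T arrays gave 0 called and 0 with an unadjusted p under 0.05 (limma; 0.0493% and 10.9% of all genes), and the largest difference was in Slc6a9 (-0.30, SE 0.16, adjusted p = 0.482). Slc6a9 was read at 2016, 1996, 2148.5, 2569.9 and 3711 on induced Treg arrays, the last of them the highest of all 31 and the second the lowest. Failed induced Treg against activated T arrays gave 0 and 0 (0.0411% and 13.2% of all genes), with Slc6a9 again largest at -0.23 (SE 0.18). Its second probe set gave 0.08 and 0.10 in these comparisons. Induced against failed induced Treg arrays gave 0 and 0, against 0% and 4.2% of all genes, and a largest member difference of 0.15, in Gad2 (SE 0.12). Induced Treg against induced Foxp3delta arrays, whose labels differ in the Foxp3 allele, likewise gave 0 and 0, against 0% and 2.81% of all genes. There Slc6a9 had -0.31 (SE 0.17) and Gad1, Glra1 and Glrb had 0.07, 0.11 and 0.05.

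The IL-2 label of induced Treg came with the largest difference of any member in these fits. Slc12a5, the chloride exporter, was read at 3461 and 3316 on the induced Treg arrays after IL-2 and at 4399.6, 5882, 5360.1, 5427 and 4088 on the induced Treg arrays without it. Both IL-2 arrays lay below all 5 others. The difference was -0.56 (SE 0.16, 95% interval -0.88 to -0.23) and did not pass the test (limma adjusted p = 0.0642), in a comparison in which 2.19% of all genes were called and 17.1% had an unadjusted p under 0.05, against 0 and 3 of the 9 members. Without 1 array at a time, 16 to 328 of all genes were called there. With a term for array set it was called (-0.62, limma adjusted p = 0.0197). It was also called within set 1 alone, with 2 arrays against 2 (-0.55, adjusted p = 0.0393), and without set 2 (-0.58, adjusted p = 0.00594). These fits reuse the same 2 IL-2 arrays, and shares of all genes called in them are not given here. The second Slc12a5 probe set, 1425337_at, did not show it (0.14, SE 0.12).

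Gad2 and Slc32a1 were the other members with an unadjusted p under 0.05 in that comparison. Gad2 was read at 249 and 225 after IL-2 and at 320.2, 284, 365, 288 and 357 without it, again with no overlap (difference -0.42, SE 0.13, limma adjusted p = 0.0916), while its second probe set gave -0.01 (SE 0.11). Slc32a1 was read at 1731 and 1383 after IL-2 against 1086, 1324.5, 1278, 1210.0 and 1433, so the groups overlapped (0.29, SE 0.11, adjusted p = 0.174), and without 1 array at a time the difference ran from 0.13 to 0.45. Groups did not overlap for 2 of the 9 members, Slc12a5 and Gad2, and for 24.4% of all genes. On the induced Foxp3delta arrays, Slc32a1 was read at 1731 and 1405 with IL-2 and at 1131.5, 1464 and 1237.5 without it (0.29, SE 0.12, adjusted p = 0.228). These groups also overlapped, and the difference was 0.14 to 0.44 without 1 array at a time. As deposited and with a common median, both Slc32a1 differences were negative. There 0 members were called, 1 had an unadjusted p under 0.05, against 0.304% and 16.5% of all genes. Slc12a5 was read at 4199 and 4106 against 4819.9, 5444 and 3919 (-0.17, SE 0.17), and Gad2 at 292 and 299 against 338, 382 and 326 (-0.23, SE 0.15).

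The difference between arrays with and without IL-2 was compared directly between the Foxp3 labels. For Slc12a5 the difference of induced Treg minus that of induced Foxp3delta arrays was -0.38 (SE 0.24), and for Slc6a9 0.38 (SE 0.29). It was -0.28 (SE 0.18) for Gad1, -0.19 (SE 0.20) for Gad2 and 0.00 (SE 0.17) for Slc32a1. All 9 members had a limma adjusted p of 1. The induced Foxp3delta side of this comparison shares no array set between its arrays with and without IL-2. Between both kinds of array after IL-2, 0 members were called, 0 had an unadjusted p under 0.05, against 0% and 2.86% of all genes. Slc12a5 (3461 and 3316 against 4199 and 4106) and Gad2 (249 and 225 against 292 and 299) did not overlap there, with differences of -0.29 (SE 0.19) and -0.30 (SE 0.16), and neither did 35% of all genes.

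How far a difference in 1 probe set stands for the gene was read from the probe sets of the same gene. Over the 31 arrays, the correlation of the probe set used in the tests with another of the same gene was -0.08 for Slc6a5, -0.22 for Slc6a9, 0.02 for Gad1, 0.17 for Gad2, 0.22 for Glra1, -0.10 for Glrb and 0.13 for Slc12a5. It was -0.33 and -0.29 for Gphn and -0.17, 0.12 and 0.29 for Slc32a1. The same holds outside this family: over 5646 genes with more than 1 probe set the median correlation was 0.01, with quartiles of -0.20 and 0.21, and it was 0.01 over the 2022 genes with both probe sets above 256. These points share arrays, normalisation and label groups, and the correlations are given as a description.

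**Figure D4:**
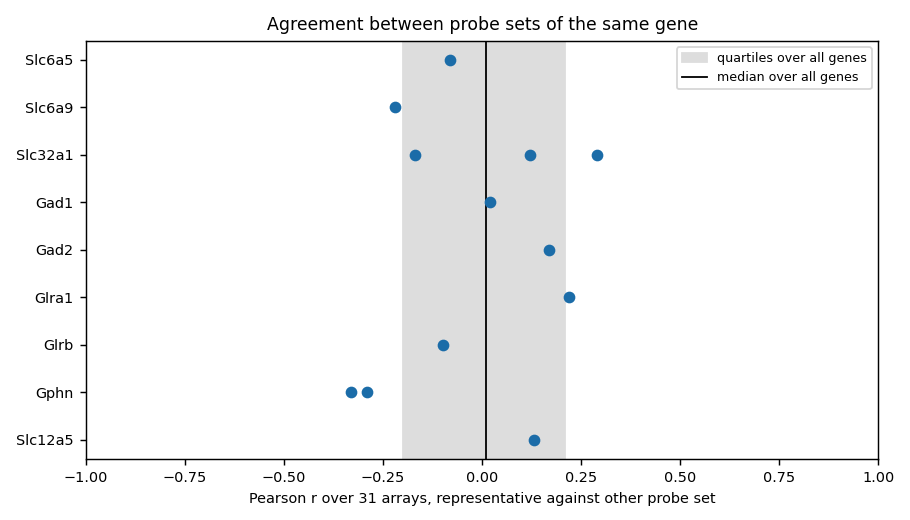
Pearson correlation over 31 arrays (x axis) between the probe set used in the tests and each other probe set of the same gene (y axis); the grey band spans the quartiles and the line marks the median, 0.01, over 5646 genes with more than 1 probe set. The member points lie between -0.33 (Gphn) and 0.29 (Slc32a1).

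Since levels of different genes cannot be set against each other, the balance of glycine and GABA was followed only as a change between arrays: the mean log2 value of Slc6a5 and Glra1 minus that of Gad1 and Gad2, relative to its mean over the 31 arrays. It ran from -0.22 to 0.22 over the arrays. The group means ran from -0.10 ± 0.12 (SD, n = 3) on activated natural Treg arrays to 0.19 ± 0.05 (n = 2) on induced Treg arrays after IL-2, a range of 0.29, where arrays of 1 group varied with a pooled SD of 0.12. For Slc6a5 against Gad2 alone the range of group means was 0.436. The other groups lay between -0.07 and 0.11, with induced Treg at 0.00 ± 0.17 (n = 5), natural Treg at -0.01 ± 0.04 (n = 4) and conventional T at -0.02 ± 0.13 (n = 3), so neighbours in this order did not differ beyond their spread. The 2 IL-2 arrays of induced Treg, at 0.15 and 0.22, belong to the group with the lowest Gad1 mean and the lowest Gad2 mean. The second Gad2 probe set did not share the IL-2 difference, as given above. Over the arrays, Slc6a5 and Glra1 correlated at 0.07 and Gad1 and Gad2 at -0.08, so the score is not shown to follow a shared balance. Means by array set were 0.01, -0.06 and 0.06 for sets 1, 2 and 3.

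**Figure D5:**
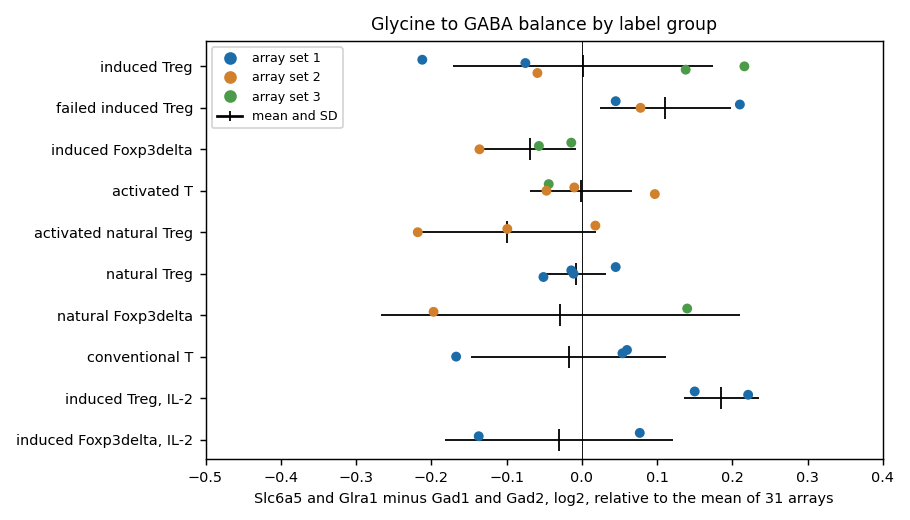
Log2 balance of the glycine genes Slc6a5 and Glra1 against the GABA genes Gad1 and Gad2 (x axis, relative to the mean of 31 arrays) by label group (y axis); points are arrays, coloured by array set, and the black mark and line are the group mean and SD. Group means lie between -0.10 and 0.19, where arrays of 1 group had a pooled SD of 0.12.

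Genes whose pattern over the 31 arrays was most like that of a member were found among 11738 tested genes, and their correlations are a description of arrays that share sets, groups and normalisation. For Slc6a5 they were Mdh1, a malate dehydrogenase (0.72), Tm9sf2 (0.68) and Egfl8 (0.67). For Gad1 they were Dguok (0.68), Rnf145 (0.67) and Trim39 (0.65), and for Gad2 Ranbp6 (0.74), Naif1 (0.73) and Wdr37 (0.73). For Glra1 they were Tbc1d19 (0.61), Shroom4 (0.60) and Cd3eap (0.56), and for Slc12a5 Dpf2 (0.80), Cox6b1 (0.78) and Sos2 (0.76). None of the 9 members is among them. Within the family the highest correlation was that of Slc6a5 with Gad2 (0.47) and the lowest that of Slc6a9 with Slc12a5 (-0.42), while Glra1 and Glrb, partners in 1 receptor, had 0.21 and the decarboxylases Gad1 and Gad2 had -0.08.

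Of the 26 companion genes of glycine and GABA handling, receptors, chloride transport and scaffold, 18 were bright enough to be tested. Each gene named in this paragraph rests on 1 probe set. Over genes with more than 1 probe set the median correlation between them was 0.01, as given above. Gcsh, the carrier protein of the glycine cleavage system, rose by 0.41 (SE 0.09, limma adjusted p = 0.00347) on activated natural Treg against natural Treg arrays. It rose by 0.31 (adjusted p = 0.0303) on activated T against conventional T arrays, where 6.76% of all genes were called. Neither pair of groups shares an array set. Dld, a dehydrogenase of the same system, fell by 0.39 (adjusted p = 0.0184) and Iqsec3, an inhibitory synapse protein, fell by 0.68 (adjusted p = 0.0173) on activated natural Treg arrays, so the companions had 1 higher and 2 lower in that comparison, where 16.7% of all genes were called and the actin 3′ to 5′ ratio separated the groups as given above. Aldh5a1, the last enzyme of GABA breakdown, rose by 0.93 (SE 0.18, adjusted p = 0.0097) on induced Treg arrays after IL-2. There 1 of 18 companions was called higher and 0 lower, against 2.19% of all genes called. Npy, a neuropeptide of inhibitory interneurons, fell by 0.57 (adjusted p = 0.0444) and Cx3cr1, a microglia receptor, by 0.41 (adjusted p = 0.0411) on the same arrays. They were 1 of 7 interneuron markers and 1 of 4 microglia markers tested, with 0 called higher, in the comparison with 2.19% of all genes called. The median differences of these lists were 0.07 and 0.02, so neither list fell as a whole. The summed microglia markers were 2488 to 2559.8 there and 2342 to 2666 on the induced Treg arrays, and their part in the results was not tested. Slc12a7, a chloride cotransporter, rose by 0.32 (adjusted p = 0.0482) on induced Foxp3delta arrays after IL-2, where 0.304% of all genes were called. These groups again share no array set, and the Gapdh 3′ to 5′ ratio was 1.01 to 1.05 with IL-2 and 0.923 to 0.993 without it. In the other comparisons 0 companions were called.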

How the data were processed

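The deposited value table held 45101 probe sets on 31 arrays, of which 34958 carried 1 gene symbol in the platform annotation, 932 several and 9211 none listed; those with several were not named. Judged from the values, the deposited intensity is linear. The summary of probes, the background correction and the scaling that the authors applied are not given in the sources used, nor is a genome build, which leaves their scale and centring unknown. The arrays were quantile normalised here and log2(intensity + 16) was taken. Each of 18194 genes was represented by its brightest probe set on average, and 12167 genes above the table median (39.82) on at least 2 arrays were tested, all 9 members among them. With limma 3.58.1 (lmFit and eBayes, R 4.3.3) 1 mean per label group was fitted, with 13 contrasts and an F test, p-values adjusted by Benjamini-Hochberg over all genes tested, and calls at an adjusted p under 0.05. The script was tested on simulated data. Percentiles are ranks within an array.

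Alternatives were other scalings, pseudocounts of 1 and 64, no filter, other uses of probe sets, array set and replicate blocks, array weights, and leaving out arrays or array sets. The sets come from Ward clustering on the cre to bioB control ratio, the median and the 99th percentile. The members and all gene lists were chosen with earlier results of these data known. All members are named, with companions called in a comparison and the 3 genes most like each of Slc6a5, Gad1, Gad2, Glra1 and Slc12a5 (unnamed gene models left out). Context genes are named where a result turned on them, chosen after their values were seen. The number of arrays limits the precision. Promoters of 8 members were matched by symbol in RefSeq's GRCm38.p6 table.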

Additional observations from a re-analysis of the deposited data

Results flagged for a closer look

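In the groups of 4 or 5 arrays, 27 member and group combinations were examined for an array that stands apart, and 2 were found, where chance gives about 1 in 20. Slc32a1 was read at 1118.2 on activated T array 1, below the other 3 at 1254 to 1269, with 0.906 of the group's range in that gap. Glra1 was read at 2791.6 on activated T array 4, above the other 3 at 1901 to 2025.5, with 0.835 of the range in the gap. The second Glra1 probe set and the further Slc32a1 probe sets had correlations with these, over all arrays, of 0.22 for Glra1 and -0.17 to 0.29 for Slc32a1. In the limma interaction test of the interleukin 2 label by the Foxp3 label, no member was called (adjusted p of 1 for all 9).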

How the results depend on the processing

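Scaling moved the results most. Relative to the quantile-normalised values, the median of all genes shifted as deposited by -0.52 in activated natural Treg against natural Treg. Against activated T it shifted by 0.45 in induced Treg, 0.34 in failed induced Treg and -0.20 in activated natural Treg. In activated T against conventional T it shifted by -0.36. With against without IL-2 it shifted by -0.30 in induced Treg and by -0.19 in induced Foxp3delta. Median scaling shifted it by 0.17 in activated T against conventional T and by -0.14 and -0.12 in those IL-2 comparisons. As deposited, members called became 2 (Gad2 and Slc32a1, induced Treg against activated T, where 7389 genes were higher and 0 lower), 0 (activated natural against natural Treg, 27 genes higher and 7106 lower) and 4 in the F test. With a common median, 1 member was called lower in natural Treg than natural Foxp3delta (Slc12a5, where 64 genes were higher and 1442 lower). In activated T against conventional T, 7 were called higher (3727 genes higher and 222 lower). In activated against natural Treg, 3 were called higher, Glra1, Gphn and Slc6a9 (2249 genes higher and 523 lower). After IL-2 in induced Treg, 1 was called (Slc12a5, -1.03, limma adjusted p = 0.0108, where 40 genes were higher and 527 lower). The F test called 7, and shares of all genes for the F tests under either scaling are not given here. These shifts did not move all genes alike. With a common median, the median difference in activated T against conventional T was 0.17 over all genes and 0.64 over the members. In induced Treg with against without IL-2 these medians were -0.14 and -0.52. What reversed the signs below was not tested. Directions reversed as deposited for Gad2 (-0.30) and Gphn (-0.18) in activated against natural Treg, Gphn against activated T (-0.006), and Slc32a1 after IL-2 in induced Treg (-0.31) and induced Foxp3delta (-0.18), and with a common median for Slc32a1 in the same comparisons (-0.13 and -0.11).

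The Gphn difference reversed to -0.17 with the mean of all probe sets. Members called in activated against natural Treg fell to 0 with a pseudocount of 1, with no filter, with the array set as a block, with array weights and without set 3. With each probe set on its own, 1 member was called between activated T and conventional T (Gphn by 1430038_at, -0.64, adjusted p = 0.0339) and 1 in the F test. For induced Treg after IL-2 the count was 1 with the set block, 1 within set 1, 2 without set 2 and 2 with array weights (Slc12a5 and Gad2), and 2 in the F test with array weights. Within set 1 that comparison has 2 arrays against 2, and shares of all genes called in these fits are not given here.

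Same-numbered samples correlated above 0.1 in 12 of 114 pairs (median 0.002). Of 21 pairs of groups with 3 or more shared numbers, 1 had all above 0.1, failed induced Treg with induced Foxp3delta (0.167, 0.138 and 0.317), which were not compared. Induced with failed induced Treg had 0.306, 0.318 and 0.047, so the numbers were not taken as pairs. The failed cells are described as coming from the same cultures, so a pairing of these arrays remains possible. The main fit did not use it. With the replicate block, the count after IL-2 was 1 (Slc12a5, -0.71, adjusted p = 0.0465) and Gphn gave 0.27 (adjusted p = 0.0807).

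Without 1 array at a time, members called ran from 0 to 2 in activated against natural Treg, 0 to 2 after IL-2 in induced Treg and 0 to 1 in the F test, and were 0 in the other comparisons, while all genes called ran from 1128 to 2367, 16 to 328 and, for activated T against conventional T, 101 to 1297. Gphn (0.21 to 0.40, adjusted p 0.0298 to 0.243) was lost except without a failed induced Treg array, activated natural Treg 2, natural Treg 1 or 2, or a natural Foxp3delta array. Slc12a5 (-0.62 to -0.50) was called without induced Treg 5 (adjusted p = 0.0441) or failed induced Treg 3 (0.045), which also brought in Gad2 after IL-2 (0.045) and in activated against natural Treg (0.032). The balance range was 0.436 for Slc6a5 against Gad2 alone, and the median member percentile was 87.6 with all probe sets averaged (chosen after seeing the data), against 96.0. Arrays give no counting depth; Slc32a1 1447573_at and 1447574_s_at were not above controls on most arrays.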
